A study of Mus musculus with 12 samples.

Results

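The transcripts of 10 genes of the NF-κB pathway were measured, of 46731 genes in the deposited table. They were chosen by symbol and comprise the 5 subunits *Nfkb1*, *Nfkb2*, *Rela*, *Relb* and *Rel* and 5 inhibitors or feedback genes, *Nfkbia*, *Nfkbib*, *Nfkbie*, *Nfkbiz* and *Tnfaip3*. All 10 passed the filter on low values (3 or more libraries at 1 FPKM or above), as did 12368 genes in all. RNA-seq was carried out on ATDC5 cells, a mouse teratocarcinoma line used as a model of chondrocytes, in 12 libraries, 3 biologically independent experiments for each of 4 groups. The cells carried a lentiviral hairpin integrated in the genome, either a control hairpin (shRNA-NC, genotype labelled wildtype) or one against *Ddx5* (shRNA-*Ddx5*), which encodes a DEAD-box RNA helicase. Each line was kept for 6 h without stimulation (in medium) or with both inflammatory cytokines, TNF-α at 25 ng/ml and IL-1β at 5 ng/ml (with cytokines). The controls in medium and with cytokines therefore share the vector and the control hairpin. The study's methods list 1 hairpin sequence against *Ddx5* and selection of transduced cells with puromycin, so effects of lower *Ddx5* and of this hairpin cannot be told apart. Whether the lines are clones was not given in the sources used here.

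NF-κB is a family of transcription factors that bind DNA as pairs of Rel-domain subunits. In resting cells most pairs are held in the cytoplasm by inhibitors of the IκB class. IL-1β and TNF-α activate the IKK kinase complex, which marks IκB proteins for breakdown, and the freed pairs enter the nucleus and switch on inflammatory genes. Several genes of the pathway are themselves targets of NF-κB, including the inhibitor gene *Nfkbia* and the deubiquitinase gene *Tnfaip3* (A20), which gives negative feedback. In cartilage the pathway is known for inducing chemokines, nitric oxide synthase and matrix-degrading enzymes.

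The fragments assigned to genes numbered 14119199 to 19276520 in a library, the shallowest being shRNA-NC in medium replicate 3. The targeted gene matched the labels in every library, with *Ddx5* at 294 to 337 FPKM in shRNA-NC and 90.7 to 118 FPKM in shRNA-*Ddx5* cells in medium, and 301 to 327 and 93.6 to 104 FPKM with cytokines. Of 8 chondrocyte markers, *Sox9* was between 5.08 and 27.8 FPKM, whereas the cartilage matrix genes *Acan*, *Matn3* and *Col9a1* were at most 0.244 FPKM in every library. Of the other matrix genes, *Col2a1* was 13.8-fold lower in shRNA-*Ddx5* cells in medium and 8.13-fold lower with cytokines (adjusted p = 5.92e-06 and 5.50e-05), and *Col11a1* was 5.32-fold and 10.7-fold higher (2.31e-06 and 1.75e-06). The 8 markers summed to 40.1 to 45.0 FPKM in shRNA-NC and 31.2 to 34.1 FPKM in shRNA-*Ddx5* cells in medium, and to 13.04 to 18.2 and 10.3 to 10.5 FPKM with cytokines. The sum of this list moved with the cytokines and with the hairpin, and single markers moved in opposite directions with the hairpin. Their part in the results on the NF-κB genes was not tested. Leukocyte markers summed to at most 0.486 FPKM and endothelial markers to at most 0.151 FPKM, and *Ptprc*, *Cd3e* and *Cdh5* were listed at 0 in all 12 libraries. In such bulk samples, fewer cells of a type and less RNA per cell cannot be told apart.

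In the coordinates of the table, which follow GRCm39, the plus strand carries *Nfkb2* (gene 18034) on chromosome 19 from 46285478 to 46300839, *Rela* (gene 19697) on chromosome 19 from 5687569 to 5698162 and *Nfkbie* (gene 18037) on chromosome 17 from 45866626 to 45874095. The minus strand carries *Nfkb1* (gene 18033) on chromosome 3 from 135290416 to 135397728, *Relb* (gene 19698) on chromosome 7 from 19340142 to 19363363, *Rel* (gene 19696) on chromosome 11 from 23686847 to 23720969 and *Nfkbia* (gene 18035) on chromosome 12 from 55536194 to 55539432. It also carries *Nfkbib* (gene 18036) on chromosome 7 from 28457676 to 28466069, *Nfkbiz* (gene 80859) on chromosome 16 from 55631740 to 55659004 and *Tnfaip3* (gene 21929) on chromosome 10 from 18876658 to 18891158. Values are per gene, and splice forms are not separated.

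The stretches of 140 bases before the start of transcription are shown for the members in which this stretch held the κB consensus, the DNA sequence NF-κB pairs bind, so that the responses given further on can be set beside the sequence of the same gene. The sequences come from RefSeq on GRCm38.p6 and are written 5′ to 3′ on the strand of the gene, and capitals mark each stretch of 10 or more bases that matches the consensus on either strand.
Nfkb2, plus strand, chr19:46304597-46304736: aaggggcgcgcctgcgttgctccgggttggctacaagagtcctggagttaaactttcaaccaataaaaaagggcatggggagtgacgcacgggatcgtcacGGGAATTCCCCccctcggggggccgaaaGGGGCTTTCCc
Rel, minus strand, chr11:23770970-23771109: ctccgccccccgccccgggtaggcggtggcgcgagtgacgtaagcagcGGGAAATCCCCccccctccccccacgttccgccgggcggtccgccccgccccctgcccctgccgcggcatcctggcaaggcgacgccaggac
Nfkbia, minus strand, chr12:55492648-55492787: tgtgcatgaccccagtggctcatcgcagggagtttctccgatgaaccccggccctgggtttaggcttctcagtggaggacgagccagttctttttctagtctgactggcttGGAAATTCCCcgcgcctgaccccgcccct
Nfkbie, plus strand, chr17:45555560-45555699: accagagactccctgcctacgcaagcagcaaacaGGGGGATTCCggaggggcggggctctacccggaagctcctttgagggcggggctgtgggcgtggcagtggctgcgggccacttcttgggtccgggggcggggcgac
Tnfaip3, minus strand, chr10:19015411-19015550: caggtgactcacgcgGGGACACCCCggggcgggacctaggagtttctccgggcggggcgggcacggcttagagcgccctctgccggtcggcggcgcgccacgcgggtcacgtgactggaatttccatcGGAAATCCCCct
*Nfkb2* held 3 matches in the stretch shown, of which those at -39 to -30 and -38 to -29 overlap, and a separate match lay at -11 to -2 from the start. *Rel* held 2 overlapping matches, at -92 to -83 and -91 to -82. *Nfkbia* held 1 match, at -29 to -20, and *Nfkbie* held 1, at -106 to -97. *Tnfaip3* held 2, at -125 to -116 and -12 to -3. In windows of 250 bases before to 50 bases after the start, 5 of the 7 members with an entry had a match, 5.14% of the 27025 genes with an entry had one, and so did 6.17% of the 8925 tested genes with an entry. *Nfkb2* was entered with 3 starts, and the windows of the other starts held a match as well. The windows of *Rela* and *Nfkbib* and of the other start of *Tnfaip3* held none. *Nfkb1*, *Relb* and *Nfkbiz* had no entry. A match is a description of letters and not evidence of binding. *Rel* carried matches close to its start but, as given below, did not pass the test for a response to cytokines, whereas *Nfkbib* and *Rela* rose without a match in this window.

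In unstimulated shRNA-NC cells the 10 transcripts spanned levels from 1.75 ± 0.208 FPKM for *Tnfaip3* to 40.1 ± 9.002 FPKM for *Rela* (SD, n = 3). FPKM is scaled by the gene length of the table, so levels of different genes can be set side by side on that length, which runs from 1579 bases for *Nfkbia* to 11300 bases for *Nfkb2*. A length that exceeds the transcripts made in these cells lowers the FPKM of a gene, which bears most on the level, rank and share of *Nfkb2*. *Rela*, which encodes the activating subunit p65, was highest at 45.0, 45.7 and 29.8 FPKM. The value of 29.8 FPKM came from the shallowest library and still lay above every other member. *Nfkbia*, which encodes the main inhibitor IκBα, followed with 21.7, 23.2 and 22.9 FPKM. *Nfkb1*, the gene of p105 and its product p50, had 16.7, 18.2 and 22.0 FPKM, so that the ranges of *Nfkbia* and *Nfkb1* overlapped. Below them, *Nfkb2*, the gene of p100 and p52, overlapped with *Nfkbib*, the gene of IκBβ, at means of 8.31 and 6.47 FPKM. *Rel* (c-Rel) was at 4.38 FPKM, and *Relb*, *Nfkbiz* and *Nfkbie* could not be ordered, with means of 2.49, 2.49 and 2.43 FPKM. *Tnfaip3* stood below them, between 1.57 and 1.98 FPKM. The plot of FPKM by library shows the same values for all groups.

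**Figure D1:**
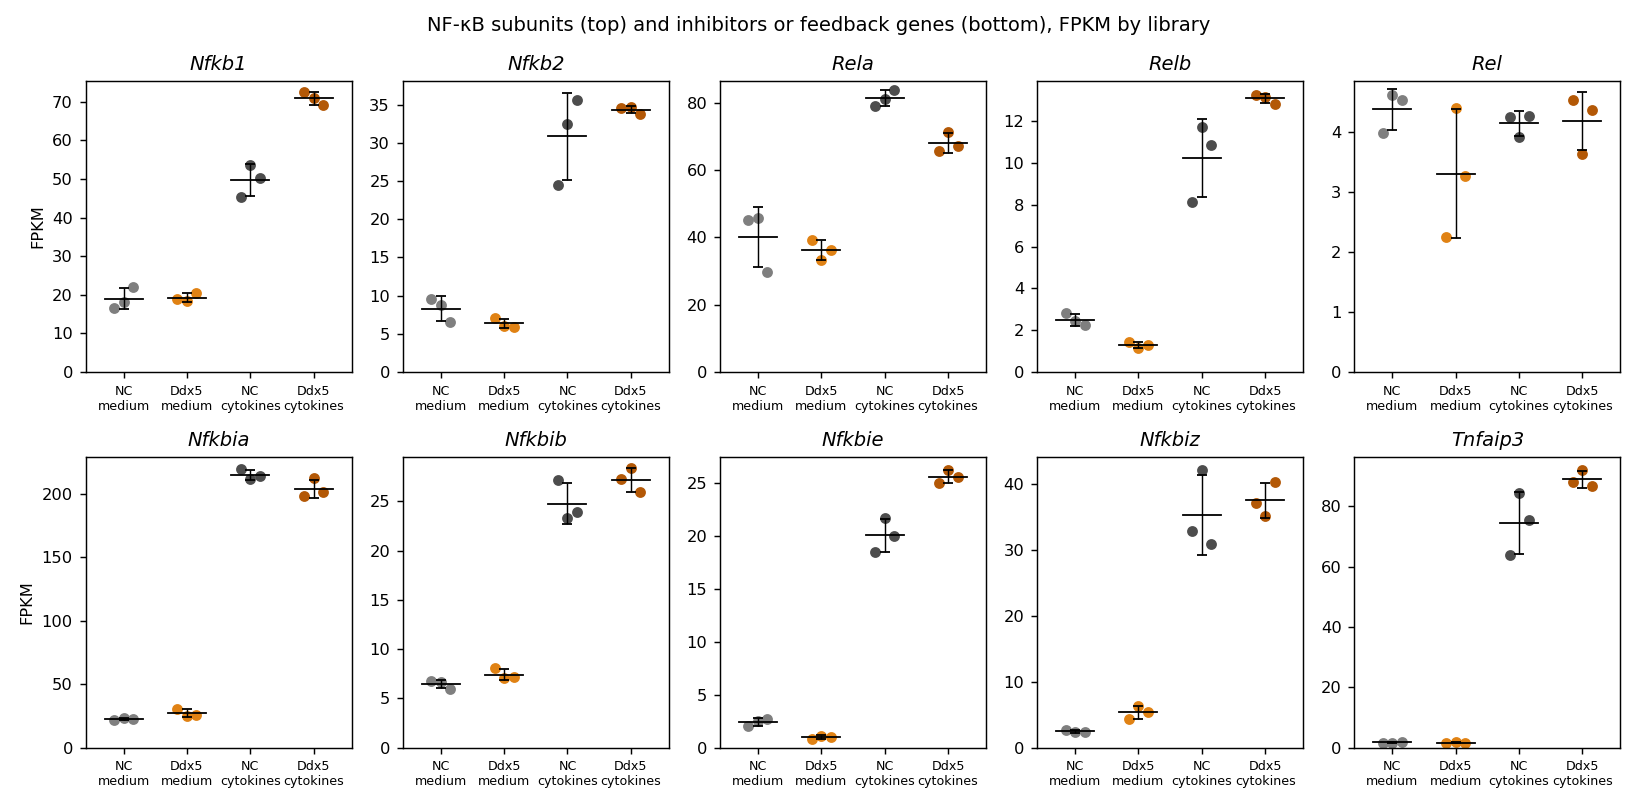
FPKM (vertical axis, linear, from 0) of the 10 genes in each library, with subunits in the upper and inhibitors or feedback genes in the lower row. Points are libraries of shRNA-NC (NC) and shRNA-*Ddx5* (Ddx5) cells in medium or with cytokines, horizontal lines are means and bars are SD (n = 3). The libraries with cytokines lie above those in medium for 9 genes and overlap with them for *Rel*, and *Relb* and *Nfkbie* are lower in shRNA-*Ddx5* cells in medium but higher with cytokines.

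In shRNA-NC cells the cytokines raised 9 of the 10 transcripts, and none fell. Over all genes tested, 18.6% rose and 15.2% fell (limma, Benjamini-Hochberg adjusted p under the threshold of 0.05). The median log2 difference, on the scale of log2(FPKM + 1) that understates changes of low genes, was 1.78 over the 10 members and 0.02 over all genes tested. All 5 inhibitor and feedback genes rose, with a median log2 difference of 3.19, and 4 of the 5 subunit genes rose, with a median of 1.35 over the 5.

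*Tnfaip3* went from 1.57, 1.69 and 1.98 FPKM in medium to 63.8, 84.4 and 75.6 FPKM with cytokines. This was the largest rise among the members, 42.7-fold in mean FPKM, with a log2 difference of 4.78 ± 0.10 (SE) and an adjusted p of 6.46e-11. *Nfkbiz*, which encodes the nuclear co-activator IκBζ, went from 2.71, 2.43 and 2.32 FPKM to 32.8, 42.1 and 30.8 FPKM, or 14.2-fold (adjusted p = 1.30e-08). The groups were far apart for both genes, although the stimulated libraries differed among themselves by more than those in medium did in FPKM. *Nfkbia* reached 219, 212 and 214 FPKM, 9.52-fold above medium (adjusted p = 2.50e-10), which made it the most abundant member after stimulation. *Nfkbie*, the gene of IκBε, rose 8.27-fold, from 2.03, 2.55 and 2.70 FPKM to 18.5, 21.7 and 20.01 FPKM (adjusted p = 8.23e-09). *Nfkbib* rose 3.83-fold, to 27.1, 23.3 and 23.9 FPKM (adjusted p = 5.39e-08). The inhibitor genes were thus separated from medium by wide gaps, and *Nfkbib* had the lowest fold of them.

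Among the subunits, *Relb*, whose product pairs mainly with p52 and p50, went from 2.80, 2.43 and 2.24 FPKM to 8.14, 11.7 and 10.9 FPKM, a rise of 4.11-fold (adjusted p = 1.40e-06). *Nfkb2* rose 3.71-fold, to 24.5, 32.5 and 35.6 FPKM (adjusted p = 5.50e-06). For both genes the lowest stimulated library was replicate 1, and for *Tnfaip3* as well. The annotated span of *Nfkb2* overlaps with those of *Psd* (3.18 to 27.2 FPKM over the 12 libraries) and 4833438C02Rik (0.441 to 5.89 FPKM) on the opposite strand. The strand setting of the counting was not given in the sources used here, and reads of these partners cannot be told apart from those of *Nfkb2*. *Nfkbib* overlaps in the same way with *Ccer2*, which was at most 0.0961 FPKM.

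*Nfkb1* rose 2.62-fold, to 45.4, 53.5 and 50.1 FPKM (adjusted p = 2.16e-06). *Rela* rose 2.02-fold, to 78.9, 81.1 and 83.7 FPKM (adjusted p = 2.29e-04), the smallest change among the members that rose. *Rel*, by contrast, was at 3.98, 4.63 and 4.53 FPKM in medium and 4.25, 3.91 and 4.27 FPKM with cytokines. The groups overlapped, and the log2 difference of *Rel* was -0.06 ± 0.15 (SE, adjusted p = 0.780).

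In shRNA-*Ddx5* cells the same 9 genes rose with cytokines and *Rel* did not pass the test, against 13.5% of all genes that rose and 13.5% that fell. The median log2 difference of the members was 2.44, and that of all genes tested was 0.00. This comparison and that in shRNA-NC cells use different groups, but the fit estimated the spread over all 12 libraries. Their p-values are therefore not independent. Each member's response was set side by side. *Tnfaip3* rose 52.6-fold, from 1.53, 1.89 and 1.66 FPKM to 88.0, 91.98 and 86.9 FPKM (adjusted p = 4.70e-11). *Nfkbie* went from 0.823, 1.14 and 1.05 FPKM to 25.002, 26.2 and 25.5 FPKM, 25.5-fold. Its fold in shRNA-NC cells was 8.27. *Relb* went from 1.46, 1.17 and 1.28 FPKM to 13.2, 13.2 and 12.8 FPKM, 10.05-fold, where its fold in shRNA-NC cells was 4.11. Both genes started lower and ended higher than in shRNA-NC cells. *Nfkbiz* had a lower fold, 7.01, from 4.28, 6.26 and 5.48 FPKM to 37.0, 35.1 and 40.2 FPKM.

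The other members responded in shRNA-*Ddx5* cells by 7.49-fold for *Nfkbia*, 5.39-fold for *Nfkb2*, 3.68-fold for *Nfkb1*, 3.67-fold for *Nfkbib* and 1.88-fold for *Rela*, with adjusted p-values from 6.73e-10 to 5.58e-04. *Rel* was at 2.25, 4.40 and 3.27 FPKM in medium and 4.54, 3.63 and 4.37 FPKM with cytokines, with a log2 difference of 0.29 ± 0.15 (SE, adjusted p = 0.189). The libraries in medium spread widely for this gene, and without replicate 2 of shRNA-*Ddx5* in medium the difference of *Rel* was 0.47 with an adjusted p of 0.0261.

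**Figure D2:**
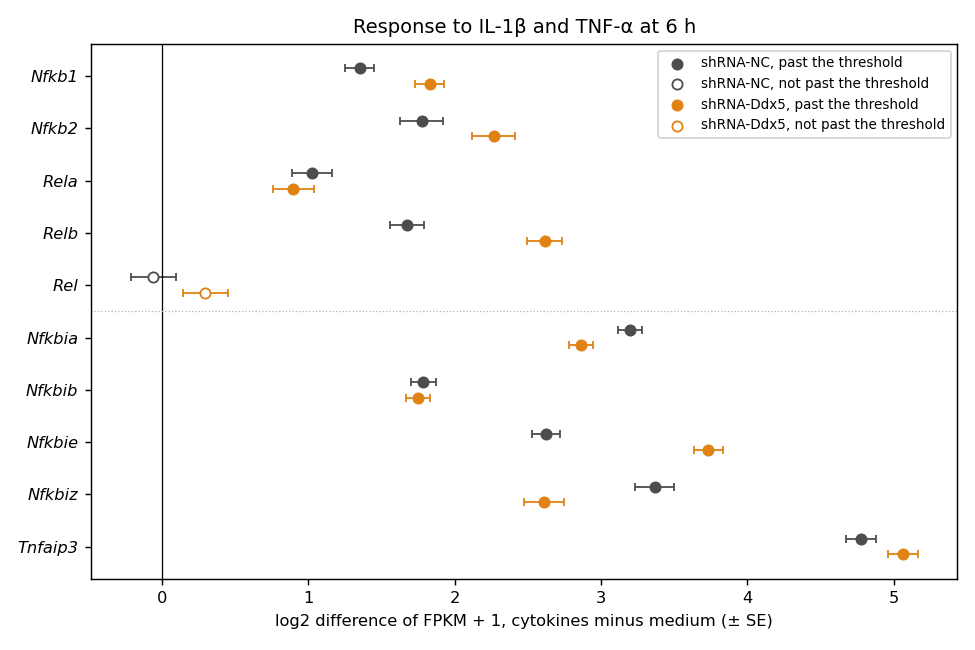
Log2 difference of FPKM + 1 between cytokines and medium (horizontal axis) for each gene in shRNA-NC cells (dark) and shRNA-*Ddx5* cells (orange), with bars of 1 SE from the limma fit and open symbols where the adjusted p did not pass 0.05. *Tnfaip3* has the largest response in both lines, 4.78 and 5.06, and *Rel* is the only gene with open symbols.

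The hairpin against *Ddx5* without stimulation was then considered. Of the 10 members, *Nfkbiz* and *Nfkbia* were higher in shRNA-*Ddx5* than in shRNA-NC cells, and *Nfkbie* and *Relb* were lower. Over all genes tested, 25.3% were higher and 21.7% were lower, so that 2 of 10 in either direction lies near the background. The median log2 difference was -0.08 over the members and 0.03 over all genes tested. *Nfkbie* fell from 2.03, 2.55 and 2.70 FPKM in shRNA-NC to 0.823, 1.14 and 1.05 FPKM in shRNA-*Ddx5* cells, 2.42-fold lower in mean FPKM (log2 difference -0.77 ± 0.10, SE, adjusted p = 8.76e-05). These levels rest on 99 to 126 fragments per library in shRNA-NC and 33 to 50 in shRNA-*Ddx5* cells. *Relb* was 1.91-fold lower, with 208 to 356 and 130 to 148 fragments per library and no overlap (log2 difference -0.60 ± 0.12, SE, adjusted p = 0.00164). Because both genes are low in medium, the added 1 FPKM compresses these differences, and with voom weights on the recovered fragments they were -1.25 for *Nfkbie* and -0.95 for *Relb*.

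*Nfkbiz* was 2.15-fold higher in shRNA-*Ddx5* cells, 4.28, 6.26 and 5.48 FPKM against 2.71, 2.43 and 2.32 FPKM (log2 difference 0.85 ± 0.13, SE, adjusted p = 4.02e-04). *Nfkbia* was 1.21-fold higher, at 30.8, 25.1 and 25.8 FPKM against 21.7, 23.2 and 22.9 FPKM (log2 difference 0.25 ± 0.08, SE, adjusted p = 0.0243). The groups did not overlap for either gene, but replicate 1 of shRNA-*Ddx5* held the highest *Nfkbia* value by a wide margin. The call of *Nfkbia* was lost without that library (adjusted p = 0.0770) or without replicate 1 of shRNA-NC in medium (0.0782), under quantile normalization (0.118) or scaling to the sum of fragments (0.106), and when only the libraries of this comparison were fitted (0.0838).

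*Tnfaip3* had a log2 difference of -0.03 and *Nfkb1* one of 0.03 in medium, both with overlapping groups. *Nfkb2* was at 7.09, 6.06 and 5.95 FPKM in shRNA-*Ddx5* cells against 9.61, 8.80 and 6.52 FPKM (adjusted p = 0.0898), and *Rela* at 39.1, 33.2 and 36.2 FPKM against 45.0, 45.7 and 29.8 FPKM (adjusted p = 0.489). The overlap of both genes came from replicate 3 of shRNA-NC in medium. Without this library *Nfkb2* was lower by a log2 difference of -0.47 (adjusted p = 0.0164) and *Rela* by -0.32 (0.00921), which brought the members called to 6. *Rel* had a difference of -0.35 (adjusted p = 0.0836), which was -0.53 (0.00739) without replicate 2 of shRNA-*Ddx5* in medium. Scaling to the sum of fragments called *Nfkb2* (0.0482) and *Rel* (0.0464) lower as well. *Nfkbib* was at 8.04, 7.04 and 7.13 FPKM against 6.76, 6.70 and 5.95 FPKM, without overlap but not past the threshold (adjusted p = 0.121). It passed under quantile normalization, with a log2 difference of 0.22 (adjusted p = 0.0392).

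With cytokines, *Nfkb1*, *Relb* and *Nfkbie* were higher in shRNA-*Ddx5* than in shRNA-NC cells, and no member was called lower in the main fit. Quantile normalization called *Rela* (-0.40) and *Nfkbia* (-0.26) lower, and other fits given below called *Rela* lower as well. Over all genes tested 23.5% were higher and 22.1% lower, so that 3 of 10 higher in the main fit lies near the background. The median log2 difference was 0.15 over the members and 0.01 over all genes. *Nfkb1* was at 72.4, 71.1 and 69.1 FPKM against 45.4, 53.5 and 50.1 FPKM, 1.43-fold higher (log2 difference 0.51 ± 0.10, SE, adjusted p = 0.00173). All libraries of shRNA-*Ddx5* cells lay above all those of shRNA-NC cells, and the call held in every alternative except the limit of 1 on the log2 difference. *Nfkbie* was 1.28-fold higher, at 25.002, 26.2 and 25.5 FPKM against 18.5, 21.7 and 20.01 FPKM (log2 difference 0.34 ± 0.10, SE, adjusted p = 0.0145). *Relb* was 1.28-fold higher as well, at 13.2, 13.2 and 12.8 FPKM against 8.14, 11.7 and 10.9 FPKM (log2 difference 0.34 ± 0.12, SE, adjusted p = 0.0343). Both shRNA-*Ddx5* groups were narrow, and the lowest shRNA-NC library was replicate 1 for each gene.

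Without replicate 1 of shRNA-NC with cytokines the calls of *Relb* (adjusted p = 0.108) and *Nfkbie* (0.0503) were lost, as they were without replicate 2 of shRNA-*Ddx5* with cytokines (0.0856 and 0.0516), leaving *Nfkb1* alone in both cases. The call of *Relb* was also lost without replicate 1 (0.0878) or replicate 3 (0.0684) of shRNA-*Ddx5* with cytokines. Of the other members, *Tnfaip3* was 1.19-fold higher without overlap between the groups, with an adjusted p of 0.0594. It passed without replicate 3 of shRNA-NC in medium (0.0495) or replicate 2 of shRNA-NC with cytokines (0.0184), with voom weights (0.0484) and with a replicate block (0.0466). *Rela* ran the other way, at 65.5, 71.4 and 67.1 FPKM in shRNA-*Ddx5* against 78.9, 81.1 and 83.7 FPKM in shRNA-NC cells, a log2 difference of -0.25 ± 0.14 (SE, adjusted p = 0.158). These groups did not overlap, and the adjusted p was 0.0153 when replicate 3 of shRNA-NC in medium was left out and 0.0176 when only the libraries of this comparison were fitted. The log2 difference of *Rela* was -0.25 in both fits. Replicate 3 of shRNA-NC in medium is not part of this comparison, so without it the differences of *Rela* and *Tnfaip3* were unchanged. Only the estimated spread and the adjustment differed. The SD of *Rela* was 9.002 FPKM in shRNA-NC in medium, and 2.38 and 3.02 FPKM in shRNA-NC and shRNA-*Ddx5* with cytokines. *Nfkbia* was at 199, 212 and 201 FPKM against 219, 212 and 214 FPKM, with overlapping groups (adjusted p = 0.479).

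**Figure D3:**
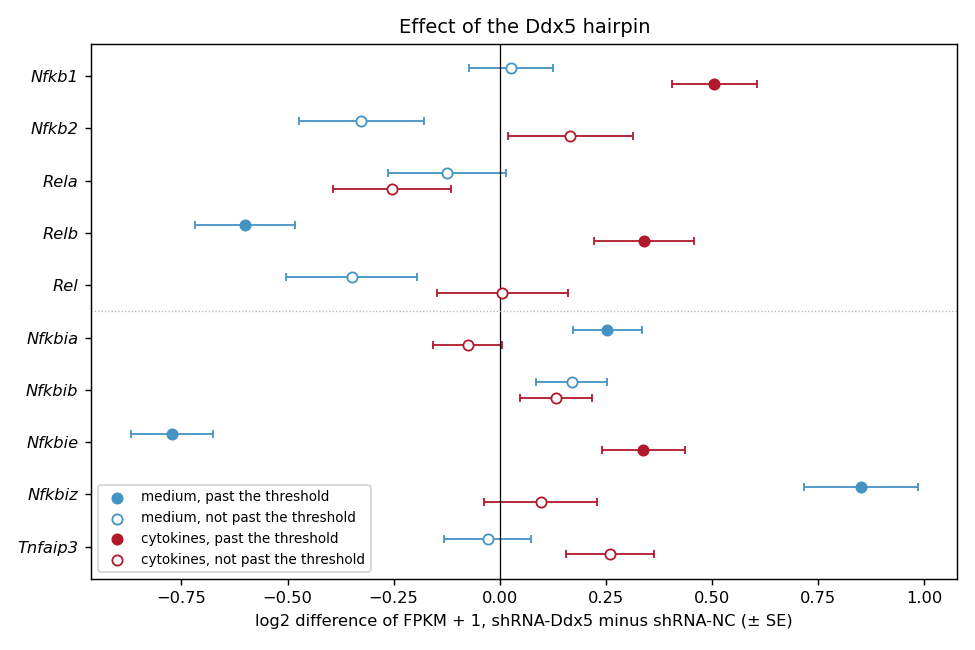
Log2 difference of FPKM + 1 between shRNA-*Ddx5* and shRNA-NC cells (horizontal axis) for each gene in medium (blue) and with cytokines (red), with bars of 1 SE from the limma fit and filled symbols where the adjusted p passed 0.05. *Relb* and *Nfkbie* lie left of 0 in medium (-0.60 and -0.77) and right of 0 with cytokines (0.34 and 0.34), and *Nfkbiz* lies at 0.85 in medium and 0.10 with cytokines.

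Whether the effect of the hairpin differed between media was tested directly, as the interaction. It passed for *Nfkbie*, *Relb* and *Nfkbiz*, where 3.46% of all genes tested had a difference in the direction of *Nfkbie* and *Relb*, and 4.75% in that of *Nfkbiz*. For *Nfkbie* the effect with cytokines exceeded that in medium by 1.11 ± 0.14 on the log2 scale (SE, adjusted p = 7.32e-04), and for *Relb* by 0.94 ± 0.17 (SE, adjusted p = 0.00594). These calls held in each of the 6 other fits and the 12 fits that left out a library, although *Relb* did not reach the limit of 1. This limit was applied to the fit of log2(FPKM + 1), and the 6 other fits gave 0.86 to 1.31 for *Relb*. For *Nfkbiz* the interaction was -0.76 ± 0.19 (SE, adjusted p = 0.0334), since its level was raised by the hairpin in medium but was at 37.0, 35.1 and 40.2 against 32.8, 42.1 and 30.8 FPKM with cytokines, where the groups overlapped. Leaving out any of 7 libraries ended this call, namely replicates 2 and 3 of shRNA-NC in medium, replicates 2 and 3 of shRNA-*Ddx5* in medium and each replicate of shRNA-*Ddx5* with cytokines, with adjusted p-values up to 0.0862. It was also lost with no filter (0.0660), scaling to the sum of fragments (0.0521) and the replicate block (0.0551). *Nfkb1* had an interaction of 0.48 ± 0.14 (SE, adjusted p = 0.0616), which passed without replicate 1 of shRNA-NC in medium (0.0388). The remaining members had adjusted p-values of 0.110 or higher, although quantile normalization called the interaction of *Nfkbia* (-0.41, adjusted p = 0.0279). All 5 comparisons draw on the same 4 groups, so that values of a library enter several of them.

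The balance of the subunit transcripts was described as the share of each in their summed FPKM. *Rela* made up 53.5% ± 6.75 in shRNA-NC and 54.4% ± 2.26 in shRNA-*Ddx5* cells in medium (SD, n = 3). With cytokines its share was 46.2% ± 2.40 in shRNA-NC cells, where *Nfkb1* had 28.2% ± 1.06. In shRNA-*Ddx5* cells with cytokines *Nfkb1* had 37.2% ± 0.747 and *Rela* 35.7% ± 1.198, and the FPKM of the 2 genes overlapped. *Nfkb2* took 11.1% ± 1.14 and 9.59% ± 0.733 in medium and 17.4% ± 2.06 and 18.0% ± 0.151 with cytokines. *Relb* had 3.36% ± 0.282 and 1.96% ± 0.146 in medium and 5.77% ± 0.682 and 6.87% ± 0.0869 with cytokines in shRNA-NC and shRNA-*Ddx5* cells. *Rel* ran the other way, from 5.95% ± 0.945 and 5.03% ± 1.85 in medium to 2.36% ± 0.252 and 2.20% ± 0.283 with cytokines. The summed FPKM of the IκB genes *Nfkbia*, *Nfkbib* and *Nfkbie* was 0.427 ± 0.0504 times that of the subunits in shRNA-NC and 0.537 ± 0.0368 times in shRNA-*Ddx5* cells in medium, and 1.48 ± 0.140 and 1.35 ± 0.0291 times with cytokines (SD, n = 3). In medium the shRNA-*Ddx5* libraries, from 0.505 to 0.577, all lay above the shRNA-NC libraries, from 0.391 to 0.485. With cytokines the order of the lines was the other way round, from 1.32 to 1.38 in shRNA-*Ddx5* and from 1.40 to 1.64 in shRNA-NC cells, and the highest ratio, 1.64, was that of shRNA-NC replicate 1. These shares and ratios describe transcripts and not proteins, and were not tested.

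**Figure D4:**
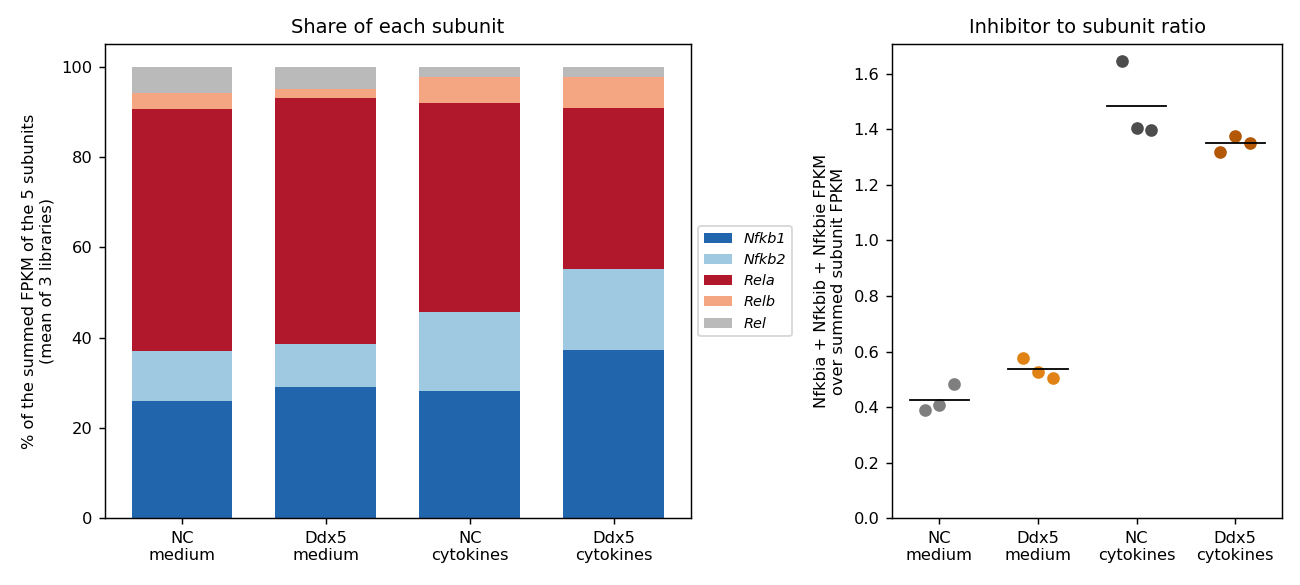
Left, share of each subunit gene in the summed FPKM of the 5 subunits (vertical axis, percent, mean of 3 libraries per group). Right, summed FPKM of *Nfkbia*, *Nfkbib* and *Nfkbie* over summed subunit FPKM in each library (points) with the mean (line). *Rela* holds 46.2% of the subunit FPKM in shRNA-NC and 35.7% in shRNA-*Ddx5* cells with cytokines, and the ratio is between 0.391 and 0.577 in medium and between 1.32 and 1.64 with cytokines.

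Other genes of the pathway were described from 4 lists, whose counts are to be read against the shares of all genes called. These were 18.6% up and 15.2% down for cytokines in shRNA-NC cells, 13.5% in each direction in shRNA-*Ddx5* cells, and 25.3% up and 21.7% down for the knockdown in medium and 23.5% and 22.1% with cytokines. The other IκB-like genes and Rel partners hold 5 genes, of which 3 were tested and none passed for cytokines in either line. In shRNA-*Ddx5* cells 1 was higher and 1 lower in medium, and 1 higher and 2 lower with cytokines. *Nfkbid*, which encodes the nuclear inhibitor IκBNS, did not pass the filter and was at 0.240 to 0.430 FPKM in shRNA-NC and 0.0182 to 0.0998 FPKM in shRNA-*Ddx5* cells in medium, and at 0.824 to 1.28 and 0.104 to 0.206 FPKM with cytokines. *Bcl3*, the gene of another nuclear IκB protein, was at most 0.791 FPKM in every library. *Commd1*, which promotes degradation of p65, was 1.36-fold higher in medium and 1.46-fold higher with cytokines in shRNA-*Ddx5* cells (adjusted p = 0.00477 and 0.00130). *Nkap*, the gene of an NF-κB activating protein, was 1.37-fold and 1.33-fold lower (0.0206 and 0.0357), and *Nkrf*, the gene of an NF-κB repressing factor, was 1.43-fold lower with cytokines (0.0274).

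Among 10 tested genes of the IKK complex and upstream kinases, 2 rose and 2 fell with cytokines in shRNA-NC cells and 3 rose in shRNA-*Ddx5* cells. The knockdown raised 1 and lowered 3 in medium, and raised 3 and lowered 4 with cytokines. The 4 of 10 called with cytokines in shRNA-NC cells and the 3 of 10 in shRNA-*Ddx5* cells lie near the background. So do the 4 of 10 called for the knockdown in medium. *Ikbkb*, the gene of the catalytic subunit IKKβ, fell from 16.3 ± 2.43 to 10.4 ± 1.01 FPKM in medium (SD, n = 3, adjusted p = 8.38e-04). With cytokines it was 1.34-fold lower in shRNA-*Ddx5* cells (adjusted p = 0.00948). *Map3k8* (Tpl2, a kinase held by p105) was at 1.83 ± 0.596 FPKM in shRNA-NC and 4.26 ± 0.482 FPKM in shRNA-*Ddx5* cells with cytokines, 2.32-fold higher (adjusted p = 3.33e-04). *Ikbkg*, which encodes the scaffold subunit NEMO, was 1.17-fold higher in medium and 1.44-fold higher with cytokines (adjusted p = 0.0340 and 2.84e-04). The interaction passed upward for 2 of these genes and downward for 1, against 3.46% and 4.75% of all genes tested. *Tbk1*, an IKK-related kinase, had an interaction of 0.77 (adjusted p = 0.00891). It was lower in medium (log2 difference -0.40, 0.00852) and higher with cytokines (0.37, 0.0133). *Map3k14* ran the other way, with an interaction of -0.58 (adjusted p = 0.0229), and was 1.42-fold lower with cytokines (0.00283).

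Among 10 tested negative regulators, 3 rose and 1 fell with cytokines in shRNA-NC cells and 6 rose in shRNA-*Ddx5* cells. The knockdown lowered 3 and raised 1 in medium, and raised 4 and lowered 2 with cytokines. The 4 of 10 called with cytokines in shRNA-NC cells and the 4 of 10 called for the knockdown in medium lie near the background. *Tnip1*, which encodes a partner protein of A20, was at 9.85 ± 0.838 and 6.77 ± 1.38 FPKM in medium and 19.8 ± 3.86 and 44.9 ± 1.15 FPKM with cytokines in shRNA-NC and shRNA-*Ddx5* cells (SD, n = 3). Like *Relb* and *Nfkbie*, it was lower in medium (adjusted p = 0.0169) and higher with cytokines (8.87e-05), with an interaction of 1.66 (7.75e-04). *Tnip2*, the gene of a related partner protein, was 3.20-fold lower in medium (adjusted p = 1.36e-05) and 1.43-fold lower with cytokines (0.0161). Its interaction was 0.94 (0.0110). *Zc3h12a*, the gene of the ribonuclease Regnase-1, was 2.16-fold higher with cytokines (adjusted p = 0.00238).

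Of 20 target genes named in textbooks, 18 rose with cytokines in shRNA-NC and 19 in shRNA-*Ddx5* cells, and none fell. The median log2 difference of the list was 3.78 and 3.09, against 0.02 and 0.00 over all genes tested. In shRNA-*Ddx5* against shRNA-NC cells, 6 were higher and 2 lower in medium and 11 higher and 2 lower with cytokines, against 25.3% and 21.7% of all genes in medium and 23.5% and 22.1% with cytokines. The 8 of 20 called in medium lie near the background. *Nos2*, which encodes the inducible nitric oxide synthase, was at 63.2 ± 30.0 and 396 ± 11.1 FPKM with cytokines (SD, n = 3), 6.27-fold higher (adjusted p = 5.91e-06). *Cxcl1*, a neutrophil chemokine gene, was 6.05-fold higher in medium (adjusted p = 7.16e-06) but had 1919 ± 380 and 2072 ± 81.2 FPKM with cytokines, giving an interaction of -2.27 (8.52e-04).

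Finally, for each member the 3 tested genes with the most alike pattern were listed by Pearson's r of log2(FPKM + 1) over the 12 libraries. These libraries share 4 groups, and 9 members differ widely between media, so values are high throughout and are given as a description. *Relb* was most like *Arid5a* (0.996), *Nfkb2* (0.992) and *Nfkbie* (0.991), and *Arid5a* also stood first for *Nfkb2* (0.994). *Nfkbia* was most like *Vcam1* (0.996) and *Nfkbib* (0.995). *Tnfaip3* had *Gbp3* first (0.998), followed by *Rgs16* and *Birc3* (both 0.997), whereas *Nfkbiz* was most like *Ripk2* (0.995) and *Cxcl1* (0.994). *Nfkb1* had *Tlr2* first (0.996), followed by *Gbp5* and *Nos2* (both 0.994). *Rela* was most like *Psd* (0.989) and *Junb* (0.987), and *Nfkbie* like *Gbp2b* (0.996). *Rel* stood apart, with 0.925 for *Ddr2* and values of 0.186 to 0.383 with the other members.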

How the data were processed

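Gene-level RNA-seq of 12 ATDC5 libraries was analysed. Groups and replicate numbers were taken from the labels, the 6 h from the labels and the cytokine doses from the study's methods. Libraries were made from 1 μg RNA with poly-T selection and read from both ends. Per the submitters' processing notes, HISAT2 2.0.5 and featureCounts 1.5.0-p3 were used, and the notes name DESeq2 1.20.0 as well. The authors deposited FPKM, in which the fragments of a gene are divided by its length and a denominator per library, for 46731 genes. The notes name mm10, whereas the coordinates of the table follow GRCm39. Within a library, FPKM times length came in whole steps (tolerance 0.001 fragments, 100% of values), so the fragments could be recovered. The denominators were 0.957 to 1.08 times their sums. This factor was 1.06 to 1.08 in shRNA-NC and 0.986 to 1.02 in shRNA-*Ddx5* libraries in medium. With cytokines it was 0.973 to 1.04 and 0.957 to 0.982. Relative to the fragments on genes, FPKM was thus scaled lowest in shRNA-NC in medium. Scaling to the sum of fragments removes this difference, and the knockdown difference of *Nfkbia* in medium then went from 0.25 to 0.16. No column of another sample was used.

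The fit was restricted to the 12368 genes that reached 1 FPKM in 3 or more libraries. The values log2(FPKM + 1) were fitted with limma 3.58.1 in R 4.3.3 (lmFit, contrasts.fit, eBayes with trend) with 4 group means over all 12 libraries and no covariate. The Benjamini-Hochberg adjustment ran over all genes tested, with a threshold of 0.05. Standard errors are those of the fit. Fold values are ratios of mean FPKM. The fit was tested on simulated data. An exact permutation test of 3 against 3 cannot go below 0.1 and was not used. With 3 libraries a group, p-values set a difference against the spread between these experiments, which the main fit estimates over all 12 libraries.

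All 10 members and *Ddx5* are named, and from the other pathway lists up to 3 genes per comparison with the largest absolute difference among called genes with non-overlapping groups, of which a selection is described. *Nfkbid* and *Bcl3*, the marker genes *Col2a1* and *Col11a1* and the genes overlapping a member were added after their values were seen. The members and lists were chosen with earlier results of these data known. The κB consensus was searched on both strands of RefSeq promoters (GRCm38.p6). Alternatives were a pseudocount of 0.1, no filter, quantile normalization, scaling to the sum of fragments, voom weights on the recovered fragments, a replicate block, only the libraries of the contrast, a limit of 1 on the absolute log2 difference and each library left out in turn. Replicate numbers were not taken as pairs in the main fit. Deviations of same-numbered libraries were correlated above 0.1 in 4 of 18 pairs. Among these were the shRNA-NC and shRNA-*Ddx5* libraries in medium of replicates 1 (0.448) and 3 (0.313), so pairing in medium was not settled. Plots were made in Python 3.11.15 (matplotlib 3.10.9).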

Additional observations from a re-analysis of the deposited data

Results flagged for a closer look

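The effect of the hairpin against *Ddx5* differed between cytokines and medium, by a test of that difference itself in limma with Benjamini-Hochberg adjustment, for 3 of the 10 genes. Over all genes tested, the difference was up for 3.46% and down for 4.75%. For *Nfkbie* the log2 effect with cytokines was 1.11 above that in medium (adjusted p = 7.32e-04), with lower levels in all 3 knockdown libraries in medium and higher levels in all 3 with cytokines. For *Relb* the difference was 0.94 (adjusted p = 0.00594) with the same arrangement of libraries. Both calls of the difference held in the 6 other fits and the 12 fits that left out a library. The call of *Relb* as higher with cytokines was lost in 5 of 7 other settings and 4 of those 12 fits, and that of *Nfkbie* in 2 of the 12. For *Nfkbiz* the difference between cytokines and medium was -0.76 (adjusted p = 0.0334), with higher levels in all 3 knockdown libraries in medium and overlapping groups with cytokines. This call was lost with no filter (0.0660), scaling to the sum of fragments (0.0521), the replicate block (0.0551) and 7 of the 12 libraries left out in turn.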

How the results depend on the processing

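Over the values of the 10 members in all comparisons, under 7 other settings and with each of the 12 libraries left out but without the limit of 1, 881 kept their direction and side of the threshold, 26 became weaker, 18 became stronger and 15 changed sign. The 9 rises with cytokines in each line were called in every other fit and with every library left out. With the limit of 1 on the log2 difference they were 9 in shRNA-NC and 8 in shRNA-*Ddx5* cells, and the members called by limma were 0 for the knockdown in medium, 0 for the knockdown with cytokines and 1 for the interaction. Quantile normalization gave 5 members for the knockdown with cytokines, adding *Rela* (-0.40) and *Nfkbia* (-0.26), and leaving out 1 library gave 1 to 5. The call of *Relb* with cytokines was lost with the pseudocount of 0.1, no filter, scaling to the sum of fragments, only the libraries of the contrast and the replicate block, with adjusted p-values from 0.0235 to 0.0912 over 7 settings. That of *Nfkbiz* in the interaction was lost with no filter, scaling and the block, with 0.0115 to 0.0660 over 6 settings. The cause was not tested.

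Signs turned only for values near 0 that were not called. Under quantile normalization *Nfkb1* in medium was -0.0370 and *Tnfaip3* in medium 0.0307. With scaling to the sum of fragments *Nfkb1* in medium was -0.0682 and *Rel* with cytokines -0.0395. With 1 library left out, the knockdown effect in medium ranged from -0.0562 to 0.132 for *Nfkb1* and from -0.0808 to 0.0307 for *Tnfaip3*, that of *Rel* with cytokines from -0.0438 to 0.0852, and the interaction from -0.233 to 0.0682 for *Rela* and from -0.0784 to 0.0272 for *Nfkbib*.

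Over all genes, the limit of 1 left 495 and 637 calls for cytokines in shRNA-NC and shRNA-*Ddx5* cells, 774 and 795 for the knockdown in medium and with cytokines and 245 for the interaction. Interaction calls numbered 551, 569 and 493 without replicate 1, 2 or 3 of shRNA-*Ddx5* with cytokines, 620 without replicate 2 of shRNA-NC in medium and 546 without replicate 3 of shRNA-*Ddx5* in medium, and there were 2219 for cytokines in shRNA-*Ddx5* cells without replicate 3 of that line in medium. The replicate block gave 9, 9, 4, 3 and 2 members called in the 5 comparisons, with *Tnfaip3* in place of *Relb* for the knockdown with cytokines (voom weights added *Tnfaip3* as well). Of 18 same-numbered pairs of libraries, 4 had deviations correlated above 0.1 (range -0.394 to 0.448). The shRNA-NC and shRNA-*Ddx5* libraries in medium correlated at 0.448, 0.0425 and 0.313 for replicates 1, 2 and 3. Libraries of different numbers were not compared, so whether the numbers pair the libraries in medium was not settled. Depth limits *Nfkbie* most, with 33 fragments in its lowest library.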
